A study of Mus musculus with 6 samples.

Results

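CD8 T cells sorted from ischemic (IR) mouse kidneys were compared with CD8 T cells sorted from normal (control) kidneys by single-cell RNA sequencing, with 1 library on each side. Barcodes were kept as T cells when they had at least 500 detected genes, at most 20% mitochondrial UMIs (unique molecular identifiers, each standing for 1 captured mRNA molecule) and at least 1 UMI of Cd3d, Cd3e or Cd3g. This left 6413 of 7956 IR CD8 barcodes and 9685 of 10885 control CD8 barcodes, that is 16098 of the 49177 cells kept from all 6 libraries. The other 4 libraries were CD4 and CD4-negative, CD8-negative (DN) T cells of the same kidneys. All mice were male wild-type C57BL/6J aged 7 to 8 weeks. In the IR group both renal pedicles were clamped for 30 min and then released, and serum creatinine was followed to 24 h. The control group had normal kidneys. Cells were released with collagenase, enriched on Percoll and sorted as CD45+ and TCRβ+ before the split by CD4 and CD8. The time of harvest and the number of mice pooled per library were not given in the sources used here.

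Conventional CD8 T cells recognise peptides on MHC class I and kill through perforin, granzymes and Fas ligand. Naive and central memory CD8 cells carry Ccr7, the chemokine receptor that guides entry to lymph nodes, while tissue-resident cells lack it and keep Itga1, Cxcr6 and Zfp683 (Hobit). Pdcd1 (PD-1), Tigit, Lag3 and Havcr2 (TIM-3) are coinhibitory receptors that dampen T cell receptor signalling and are high on chronically stimulated cells.

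The libraries differed in depth by condition. The kept cells held a median of 1827 UMIs in IR CD8 and 6943 in control CD8, and the other subsets followed the same order, with medians of 1520 to 2441 UMIs in IR and 6943 to 8554 in control. Ribosomal protein genes took 42.0% of UMIs in IR CD8 and 22.8% in control CD8. Levels are given in CPM, the UMIs of a gene summed over all kept cells and scaled to a fixed library total. The total covers the features that remained after mitochondrial genes, ribosomal protein genes and Malat1 were removed. The sums were 7405674 and 55113439 UMIs for IR and control CD8. Condition, depth and Cell Ranger version cannot be told apart here, which is why each CD8 ratio is set beside the ratios of the CD4 and DN pairs. With 1 library per group no SD or p-value can be given, and the 95% intervals cover counting error only. A summed level also cannot tell fewer cells of a type from less RNA per cell. Of the IR CD8 barcodes, 189 were also found in another IR library (41 among the kept cells), and 155 control CD8 barcodes (110 kept) were found in another control library.

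The sort was checked against its defining genes. Cd8a, the alpha chain of CD8, was at 852 CPM in control CD8 and 404 CPM in IR CD8. It was at 0.186 CPM or less in the 4 CD4 and DN libraries. Cd8b1, the beta chain, was at 1346 and 1118 CPM, and Trac, the constant segment of the T cell receptor alpha chain, was at 823 and 846 CPM. Cd8a therefore marked both CD8 libraries, but it fell (log2 ratio of IR over control -1.08, 95% interval -1.13 to -1.02) where Cd8b1 did not pass the 2-fold rule (-0.27). Some cells had a UMI of Ccr7, S1pr1, Dapl1 or Igfbp4 (naive-gene UMIs) after each was thinned to 500 retained UMIs. Without those cells the Cd8a ratio was -0.93, under 2-fold. Of 18 CD8 identity genes, 3 fell (Cd8a, Cd5 and Ptprc) and none rose, a share of fallen genes near that of all genes (17.5%). Gm44174, a lincRNA that ends just upstream of Cd8a (mm10, chromosome 6, 71353035 to 71373284, against 71373427 to 71379173 for Cd8a, both on the plus strand), went from 315 to 71.8 CPM. Thinned to 500 retained UMIs per cell, 34.5% (33.5 to 35.5) of control CD8 cells and 16.7% (15.8 to 17.7) of IR CD8 cells had a Cd8a UMI. Among CD4 cells without thinning, 3 of 9518 control cells had one.

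Only genes at 10 CPM or more on the higher side with a difference of at least 2-fold are said to have risen or fallen. Of 9137 genes at 10 CPM in CD8, 681 (7.45%) rose and 1600 (17.5%) fell with ischemia. The median log2 ratio over all of them was -0.39. CD4 gave 657 (7.24%) higher and 1312 (14.5%) lower of 9077 genes with a median of -0.27. DN gave 755 (8.18%) higher and 967 (10.5%) lower of 9226 with a median of -0.27. With the removed features kept in the total the CD8 median moved by -0.41 and the split became 321 higher and 3138 lower. After centring within bins of intronic length it became 913 higher and 481 lower, since the ratio ran from 0.20 in the CD8 bin with the least intronic sequence to -0.91 in the bin with the most. The values below are therefore read beside the all-gene median of their pair. Much of the CD8 change was shared: of 465 risen genes measurable in all 3 pairs, 403 also rose at least 2-fold in CD4 and 351 in DN. Of 1504 fallen genes, 997 fell at least 2-fold in CD4 and 721 in DN.

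The marker genes of the comparison moved in different ways across the 3 pairs. Ccr7 rose from 80.4 to 641 CPM in CD8, a log2 ratio of 3.0 (2.94 to 3.06). The CD4 pair gave a rise from 31.2 to 236 CPM (2.92), and in DN it went from 1.03 to 9.12 CPM (3.14). The Ccr7 ratio was thus similar in size in every subset, and its level was highest in IR CD8. Pdcd1 fell from 64.2 to 22.6 CPM in CD8, a log2 ratio of -1.51 (-1.74 to -1.28). In CD4 it was at 34.8 and 31.3 CPM (-0.15) and in DN at 27.1 and 22.8 CPM (-0.25). Pdcd1 was highest in control CD8, and the other 5 libraries lay between 22.6 and 34.8 CPM. Tigit fell from 30.4 to 14.2 CPM in CD8 (-1.10, -1.40 to -0.82). It was at 16 and 27.6 CPM in CD4 (0.79) and rose from 8.92 to 31.7 CPM in DN (1.83). With ischemia the order of Tigit levels reversed, from CD8 highest in control kidney to CD8 lowest in IR kidney.

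**Figure D1:**
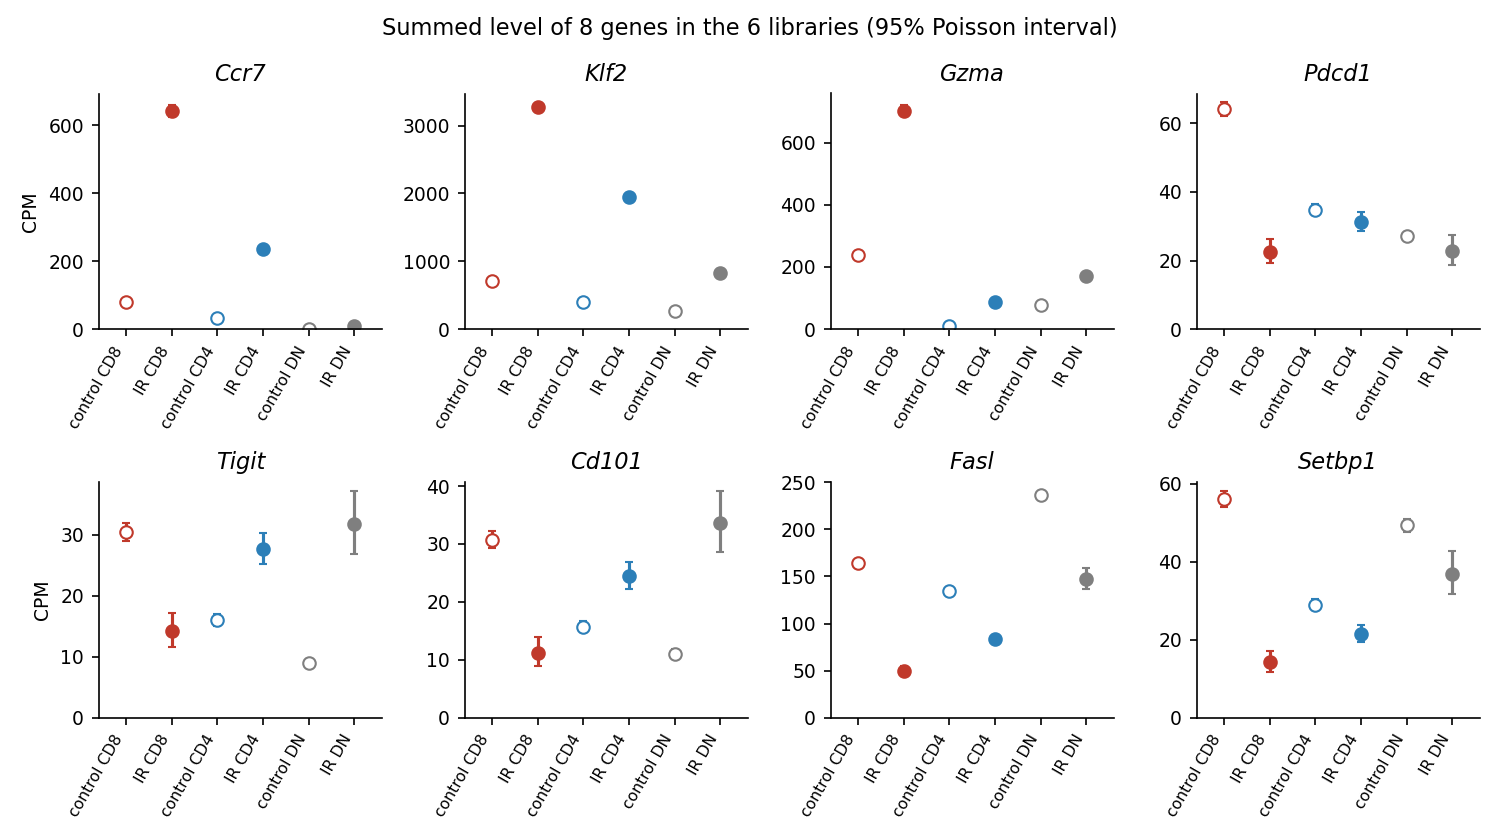
Summed level in CPM (linear axes from 0) of 8 genes in the 6 libraries, 1 point per library, open for control and filled for IR; bars are 95% Poisson intervals. Ccr7, Klf2 and Gzma are highest in IR CD8, at 641, 3279 and 704 CPM, while Fasl and Setbp1 are lowest in IR CD8; Tigit and Cd101 in IR CD8 lie under every library but control DN.

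Shares of cells with a UMI were compared after thinning every cell to 500 retained UMIs. A Ccr7 UMI was found in 4.15% (3.76 to 4.57) of control CD8 cells and 24.7% (23.6 to 25.8) of IR CD8 cells. In CD4 the shares were 1.42% (1.19 to 1.68) and 10.5% (9.87 to 11.1), and in DN 0.0645% (0.0237 to 0.140) and 0.506% (0.309 to 0.781). Pdcd1 was found in 3.17% (2.83 to 3.54) of control CD8 cells and 1.12% (0.879 to 1.41) of IR CD8 cells. The IR CD8 share lay within the intervals of the IR CD4 share of 1.17% (0.976 to 1.40) and the IR DN share of 1.21% (0.897 to 1.61). Tigit was found in 1.68% (1.44 to 1.96) and 0.717% (0.526 to 0.956) of control and IR CD8 cells. The IR CD4 and IR DN shares of Tigit were 1.30% (1.09 to 1.54) and 1.42% (1.07 to 1.84). Unthinned, the Ccr7, Pdcd1 and Tigit shares were 18.1%, 19.1% and 12.5% in control CD8 and 37.3%, 2.28% and 1.48% in IR CD8, at median depths of 6943 and 1827 UMIs. Barcodes of the CD8 libraries without a Cd3 UMI that passed the other filters numbered 166 in control and 414 in IR, with medians of 1072 and 1498.5 UMIs. They are no clean background, since 28.3% and 6.52% of them had a Cd8a UMI at 500 UMIs. Their shares were 4.82% and 30.0% for Ccr7, 3.01% and 0.483% for Pdcd1 and 3.01% and 0.725% for Tigit, so free RNA in these shares was not tested. For Ccr7, the DN cells of the same condition had 0.0645% and 0.506%.

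**Figure D2:**
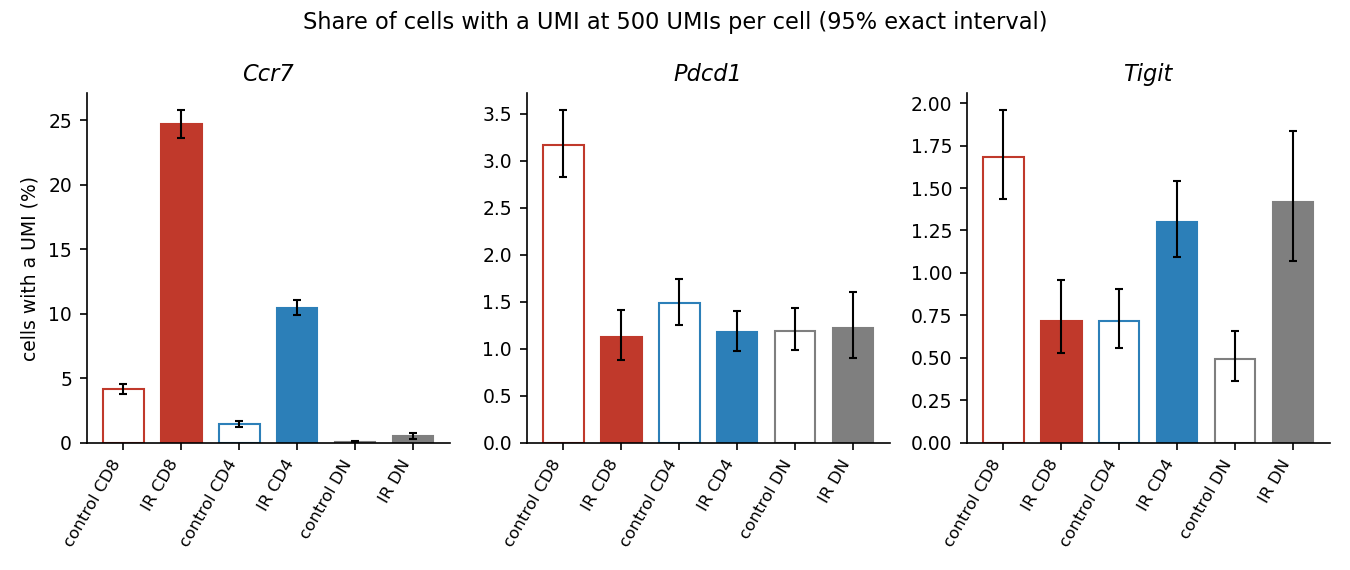
Share of cells (%, from 0) with at least 1 UMI of Ccr7, Pdcd1 or Tigit after each cell was thinned to 500 retained UMIs, by library, with exact 95% Clopper-Pearson intervals. Ccr7 stands at 24.7% in IR CD8 against 4.15% in control CD8, and Pdcd1 at 3.17% in control CD8 against 1.12 to 1.48% in the other 5 libraries.

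Of 16 naive or recirculating genes, all at 10 CPM or more in CD8, 7 rose in CD8 and none fell, with a median log2 ratio of 0.86 against -0.39 over all genes. The medians were 0.93 in CD4 and 0.03 in DN. Klf2, the transcription factor that drives the egress receptor S1pr1, rose from 703 to 3279 CPM (2.22). S1pr1 itself rose from 99.3 to 341 CPM (1.78), against 2.08 in CD4 and 0.37 in DN. Dapl1 rose from 145 to 342 CPM (1.24). Igfbp4, which is high in naive T cells, rose from 33.3 to 143 CPM (2.10). Il7r, the receptor of the survival cytokine IL-7, went from 358 to 707 CPM (0.98) and lay just under 2-fold. With the removed features kept in the total, 4 of the 16 genes remained called, and Dapl1 and Txk were among those that dropped below 2-fold. Cxcr4, a chemokine receptor of circulating lymphocytes, rose from 49.9 to 173 CPM (1.80), with 2.34 in CD4 and 2.14 in DN.

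Among genes of tissue residency and memory, several fell. Itga1 (CD49a), a collagen-binding integrin, fell from 262 to 38.8 CPM (-2.76), against -2.35 in CD4 and -1.48 in DN. Cxcr6, the receptor of Cxcl16, fell from 658 to 149 CPM (-2.15), against -1.48 and -1.24. Zfp683 fell from 22.2 to 1.89 CPM (-3.56), against -2.61 and -2.31. P2rx7, the ATP-gated channel, fell from 108 to 19.98 CPM (-2.43), against -1.64 and -1.06. These 4 were the fallen genes among 12 tissue-resident genes measured, 1 rose (Spry2), and the list median of -0.16 lay above the all-gene median of -0.39. Cd69, which is used both as a residency and as an activation marker, was at 572 and 601 CPM (0.07). The CD8 ratio was the lowest of the 3 pairs in 10 of 11 tissue-resident genes, while it was the lowest in 52.6% of all 8572 genes measurable in 3 pairs. Of 16 memory genes 5 fell and 1 rose, with a median of -0.84. Cxcr3, a receptor of interferon-induced chemokines, fell from 331 to 80.7 CPM (-2.03). Tbx21 (T-bet) fell from 226 to 67.8 CPM (-1.74), and Itgb1, the beta-1 integrin chain, from 1120 to 366 CPM (-1.62). Within bins of intronic length 2 of the 16 memory genes fell, the median was -0.44, and Itgb1, Cd44 and Itga4 were below 2-fold. After thinning 8 of 15 fell (-1.08), and with the removed features kept 10 of 15 (-1.30).

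The coinhibitory receptors gave the lowest list median in CD8 after the heat shock genes. Of 14 genes, 10 fell and none rose, with medians of -1.19 in CD8, -0.49 in CD4 and -0.32 in DN. Of all genes measured in CD8, 17.5% fell. In addition to Pdcd1 and Tigit, Lag3 fell from 28.9 to 13.2 CPM (-1.13) and Havcr2 from 18.2 to 7.02 CPM (-1.37). Cd160, a receptor for Tnfrsf14 (HVEM), fell from 240 to 101 CPM (-1.25), and Entpd1 (CD39), an enzyme that breaks down extracellular ATP, from 95.7 to 27.7 CPM (-1.79). Cd200r1 fell from 21.7 to 3.11 CPM (-2.80) and Cd244a from 13.4 to 2.97 CPM (-2.17). Btla fell from 62.2 to 30.9 CPM (-1.01), just past the 2-fold line. Ctla4, which competes with Cd28 for its ligands, did not pass it and was at 101 and 139 CPM (0.47). Lair1, Vsir and Cd96 did not pass it either, with ratios from -0.75 to 0.00. The CD8 ratio was the lowest of the 3 pairs in 9 of 10 coinhibitory genes measured in all of them, against 52.6% of all 8572 such genes. Pdcd1, Tigit and Cd101 are among these and also met the larger-fall rule below, which itself asks for the lowest ratio in CD8. After centring within bins of intronic length, 4 of the 14 remained at least 2-fold lower, and the median was -0.85 against 0 over all genes. With the cells that had a UMI of Ccr7, S1pr1, Dapl1 or Igfbp4 left out, 6 of the 14 fell, with a median of -0.86, and Tigit (-0.84), Lag3, Havcr2 and Cd160 were below 2-fold.

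**Figure D3:**
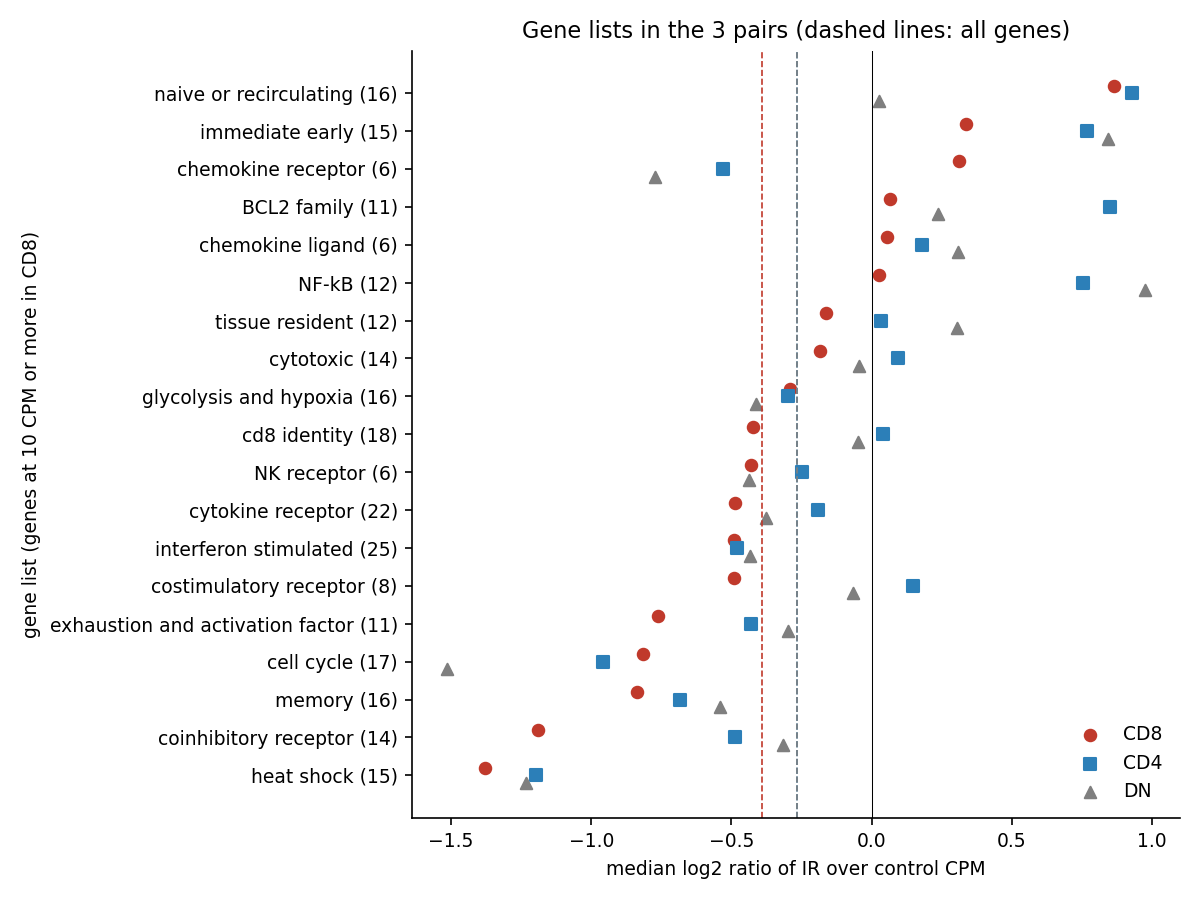
Median log2 ratio of IR over control CPM for each gene list in the CD8, CD4 and DN pairs, over genes at 10 CPM or more in the higher library; dashed lines are the all-gene medians (-0.39 in CD8, -0.27 in CD4 and in DN). The coinhibitory list lies at -1.19 in CD8 against -0.49 and -0.32, and the NF-kB list at 0.03 against 0.75 and 0.97.

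Cytotoxic genes did not move as a block. Of 14 genes, 1 rose and 3 fell, with a median of -0.19. Gzma (granzyme A) rose from 240 to 704 CPM (1.55), while Prf1 (perforin), which forms the pore for granzyme entry, fell from 122 to 35.2 CPM (-1.79). Fasl fell from 164 to 49.6 CPM (-1.73) and Tnf from 126 to 54.6 CPM (-1.20). Gzmb was at 173 and 283 CPM (0.71), Ifng at 321 and 385 CPM (0.26) and Nkg7, a granule protein, near 0 in ratio (0.16). Gzma also rose in CD4 (11.3 to 87.9 CPM, 2.96) and in DN (76.5 to 170 CPM, 1.15). Among chemokine ligands Ccl5 was the most abundant, at 7313 and 14232 CPM (0.96). The share of cells with a Ccl5 UMI at 500 UMIs went the other way, from 77.6% (76.8 to 78.5) to 49.3% (48.1 to 50.6), and was 91.4% and 53.8% unthinned. Ccl3 and Ccl4 had ratios of 0.04 and 0.06. Xcl1, the ligand of Xcr1 on cross-presenting dendritic cells, was at 393 and 231 CPM in CD8 (-0.77), with 0.18 in CD4 and 0.71 in DN. Of 6 NK receptors measured, 1 rose and 2 fell. Klrd1 (CD94) rose from 260 to 736 CPM (1.5), and Klrk1 (NKG2D) fell from 209 to 88.4 CPM (-1.24), against -0.13 in CD4 and -0.40 in DN. Without cells with naive-gene UMIs neither Klrk1 nor Klrc2 was 2-fold lower.

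Activation factors split as well. Nr4a1, which is induced by T cell receptor signalling, rose from 55.7 to 250 CPM (2.17), and Batf and Nfil3 rose with ratios of 1.03 and 1.51. Batf was at the line and dropped below 2-fold with the removed features kept (0.63), without cells with markers of other cell types, and without cells with naive-gene UMIs (0.69). Tox, a factor of chronically stimulated CD8 cells, fell from 623 to 171 CPM (-1.87), against -1.33 in CD4 and -1.77 in DN, and Nr4a2, Prdm1 and Maf fell with ratios from -1.40 to -1.18. The median over 11 exhaustion and activation factors was -0.76, and 0.02 within bins of intronic length, where Tox, Prdm1 and Maf were below 2-fold. Of 15 immediate early genes 6 rose and none fell, among them Junb (1677 to 5331 CPM, 1.67), Zfp36 (209 to 701 CPM, 1.74) and Dusp1 (277 to 659 CPM, 1.25). Their median was 0.34 in CD8, 0.77 in CD4 and 0.84 in DN. With the removed features kept it was -0.06 in CD8, and 3 rose and 2 fell. The cytokine signalling inhibitors Socs1 (84.1 to 393 CPM, 2.23) and Socs3 (39.1 to 272 CPM, 2.80) rose, as did the interferon gamma receptor chain Ifngr2 (12.9 to 102 CPM, 2.98). Of 25 interferon-stimulated genes measured, none rose and 6 fell, with a median of -0.49 in CD8, near the all-gene median.

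NF-kB genes had lower ratios in CD8 than in the other subsets. Of 12 genes, 2 rose in CD8, 4 in CD4 and 5 in DN, and the medians were 0.03, 0.75 and 0.97. Of all genes, 7.45%, 7.24% and 8.18% rose in these pairs. Nfkbia, the inhibitor that NF-kB induces on itself, rose from 431 to 1218 CPM in CD8 (1.5), against 2.33 in CD4 and 2.20 in DN. Tnfaip3 (A20), another feedback inhibitor, was at 419 and 659 CPM in CD8 (0.65), and rose in CD4 and DN (1.23 and 1.74). Nfkb2, a subunit of the alternative pathway, was at 34.9 and 37.8 CPM in CD8 (0.11) and rose in CD4 and DN (1.04 and 1.46). Traf1 was at 218 and 158 CPM in CD8 (-0.46), with 0.76 in CD4 and 1.07 in DN. The CD8 ratio was the lowest of the 3 pairs in 10 of the 12 genes, against 52.6% of all genes measurable in 3 pairs. With the removed features kept, the CD8 median was -0.37 at an all-gene median of -0.80.

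Of 15 heat shock genes measured in CD8, 10 fell and none rose, and of 14 measured in CD4 and in DN, 8 and 9 fell, with medians of -1.38, -1.20 and -1.23 in CD8, CD4 and DN. Hspa1a and Hspa1b, the stress-induced Hsp70 genes, fell from 901 to 75.1 CPM (-3.59) and from 1633 to 116 CPM (-3.81). Neither gene holds an intron. Bag3, a partner of Hsp70, fell from 91.7 to 7.43 CPM (-3.63) and Hsph1 from 391 to 68.1 CPM (-2.52). Hspa8, the constitutive Hsp70, was at 2446 and 1827 CPM (-0.42). Hspb1 fell with the cell filters (-1.38) but had a ratio of 0.34 with no cell filter. The promoters of Hspa1a and Hspa1b are printed because both genes fell over 10-fold and share a heat shock element core, GAANNTTC, which reads the same on both strands. Of the 12 heat shock genes with a promoter in the RefSeq table, 6 had this core within 250 bases upstream of their start, against 7.73% of 27025 genes. The sequences below run 5′ to 3′ from RefSeq (GRCm38.p6, the build of mm10), from chr17:34972157-34972406 and chr17:34959239-34959488, both on the minus strand, with the core in capitals. They have 247 of 250 bases (98.8%) in common. The transcripts of the pair were not compared, so how UMIs were assigned between them was not tested.
Hspa1a: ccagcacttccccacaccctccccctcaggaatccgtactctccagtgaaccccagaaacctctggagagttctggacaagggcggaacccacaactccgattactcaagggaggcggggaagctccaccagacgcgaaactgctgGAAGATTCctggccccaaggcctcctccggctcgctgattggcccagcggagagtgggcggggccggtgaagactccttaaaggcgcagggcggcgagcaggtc
Hspa1b: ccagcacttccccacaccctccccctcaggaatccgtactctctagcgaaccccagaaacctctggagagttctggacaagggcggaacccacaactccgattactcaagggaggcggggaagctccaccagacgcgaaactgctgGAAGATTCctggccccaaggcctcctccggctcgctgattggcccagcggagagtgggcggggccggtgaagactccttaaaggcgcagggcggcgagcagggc

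Of 17 cell cycle genes measured in CD8, 5 fell and none rose, with medians of -0.81 in CD8, -0.96 in CD4 and -1.51 in DN. Without barcodes shared between libraries of a condition 2 fell, with a CD8 median of -0.50, and within bins of intronic length 2 fell. After thinning 8 of 14 fell (-1.12), as a mean over cells 10 of 15 (-1.20), and with the removed features kept 11 of 16 (-1.24, at an all-gene median of -0.80). Mki67 fell from 89.96 to 16.9 CPM (-2.41). Top2a fell from 125 to 59.3 CPM (-1.08), a call that ended without shared barcodes, within bins of intronic length, without cells with naive-gene UMIs and with at least 2 Cd3 UMIs per cell. Pclaf, a replication factor, was at 81.3 and 57.1 CPM in CD8 (-0.51), whereas it fell in CD4 and DN (-1.77 and -1.78). Among 16 glycolysis and hypoxia genes 1 rose (Hk2) and 3 fell (Slc2a1, Slc2a3 and Pfkl), and the median of -0.29 was close to -0.30 in CD4 and -0.41 in DN. Of 11 BCL2 family genes, Bbc3 rose and Pmaip1 fell. Of 22 cytokine receptor and signalling genes 3 rose and 5 fell, with a median of -0.49, and Cd226, Cd40lg and Slamf7 were the fallen genes among 8 costimulatory receptors, with a median of -0.49. These counts stand beside 7.45% higher and 17.5% lower of all genes.

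Changes larger in CD8 than in CD4 and DN were few. The rule asked for a 2-fold change in CD8 that exceeded the change in CD4 and in DN at least 2-fold in the same direction, among 8572 genes at 10 CPM in all 3 pairs. By it 6 genes (0.07%) had a larger rise and 19 (0.222%) a larger fall in CD8. The same excess of 1 pair over the other 2 was met by 3 rising (0.035%) and 7 falling (0.0817%) genes for CD4 and by 10 and 10 (0.117% each) for DN, so CD8 was not alone in having such genes. The values that chose these genes are given as a description. Just inside the limit lay Kdm4d, Plscr1 and Gdpd5, whose CD8 ratio exceeded the nearer pair by 1.01, 1.02 and 1.03, and just outside lay A930006K02Rik, Apoe and Trat1 at 0.99, 0.98 and 0.96.

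**Figure D4:**
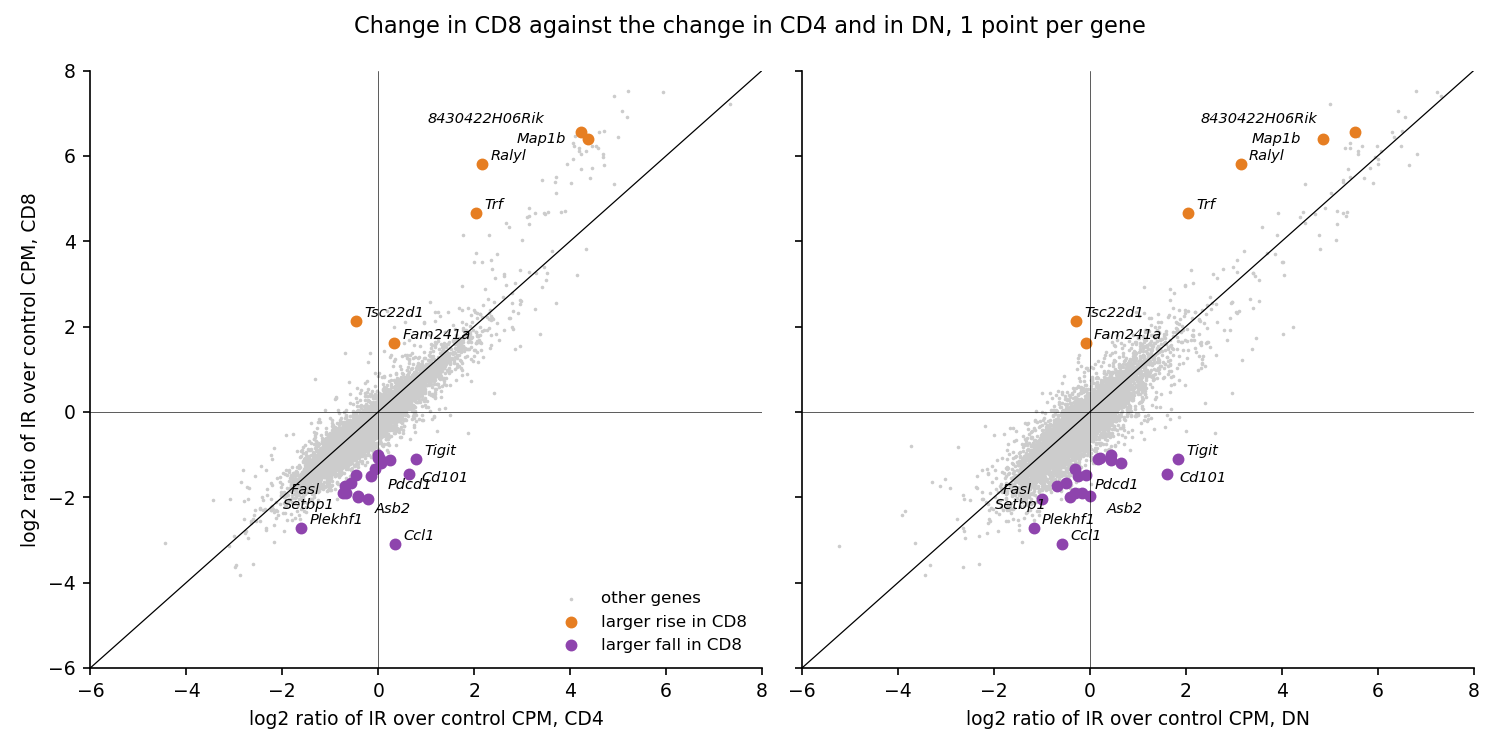
Log2 ratio of IR over control CPM in CD8 (y axes) against CD4 (left) and DN (right), 1 point per gene measurable in all 3 pairs; colours mark the 6 genes with a larger rise and the 19 with a larger fall in CD8, and the diagonal is equality. Tigit and Cd101 lie below 0 in CD8 and above 0 in the other pairs.

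The larger falls were of genes with varied roles. Cd101, an immunoglobulin-family receptor, fell from 30.7 to 11.2 CPM in CD8 (-1.45, -1.79 to -1.14). Its CD4 levels were 15.7 and 24.5 CPM (0.64), and it rose from 11 to 33.6 CPM in DN (1.61). Cd101 and Tigit were the 2 genes of 8934 (0.0224%) that changed at least 2-fold in CD8 and at least 2-fold the other way in CD4 or DN. Fasl was at 134 and 83.2 CPM in CD4 (-0.69) and at 237 and 147 CPM in DN (-0.69), a smaller ratio than the -1.73 of CD8. Setbp1, which binds the SET oncoprotein, fell from 56.1 to 14.2 CPM in CD8 (-1.99, -2.28 to -1.70), with -0.43 in CD4 and -0.42 in DN. Lrrk1, a leucine-rich repeat kinase, fell from 76.9 to 18.8 CPM (-2.03), with -0.21 and -1.0. Without the cell with most UMIs in each library its ratios in CD4 and DN were -0.64 and -1.14, and it no longer met the rule, as at the 10% mitochondrial limit. Mirt1, a lincRNA, fell from 63.5 to 29.3 CPM (-1.12), with 0.04 and 0.17. These 3, with Pdcd1 and Fasl, were the fallen genes of the rule at 50 CPM or more in the higher CD8 library. With 50 CPM asked of all 3 pairs, Fasl alone met it. After centring within bins of intronic length 6 of the 19 still met the rule (Pdcd1, Setbp1, Asb2, Ccl1, Camk2n1 and Bmp7), and under TMM scaling 13 did, Fasl and Lrrk1 not among them.

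The remaining larger falls were at lower levels and were named after their values were seen. Asb2, a substrate receptor of a ubiquitin ligase, fell from 27.6 to 7.02 CPM in CD8 (-1.98), with -0.43 in CD4 and 0.00 in DN. Socs2, an inhibitor of cytokine signalling, fell from 17.9 to 8.24 CPM (-1.12) and was much higher in CD4 (101 and 120 CPM) and DN (174 and 236 CPM). Cd40lg, the ligand that helper cells present to B cells, fell from 34.1 to 10.7 CPM (-1.67), at levels far under those of CD4 (356 and 242 CPM). Camk2n1, an inhibitor of CaM kinase II, fell from 43.9 to 19.0 CPM (-1.20). Ccl1, a chemokine ligand of Ccr8, fell from 18.5 to 2.16 CPM (-3.09), but 502 of its 1017 control UMIs lay in 1 cell and 890 in 10 cells. Without the cell with most UMIs in each library the Ccl1 ratio was -3.78 in CD8, -1.06 in CD4 and -0.72 in DN. Ccl1 then lay under the 10 CPM minimum in CD8, and for that reason no longer met the rule for a larger fall. The others were Plekhf1, Bmp7, Traj18, Gdpd5, Plscr1, Mmab and Kdm4d, with CD8 ratios from -2.72 to -1.0.

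Promoters of Tigit and Fasl are printed as those of a coinhibitory receptor and the death ligand among the larger falls. The NFAT core GGAAAA, searched on both strands, was found within 250 bases upstream of the start in 4 of the 12 fallen genes with a promoter in the table (Tigit, Fasl, Ccl1 and Asb2), against 22.9% of 27025 genes. The sequences are from chr16:43664185-43664434 and chr1:161788496-161788745 (GRCm38.p6, minus strand, 5′ to 3′). The capitals mark the core as read on the other strand, 14 and 227 bases before the start.
Tigit: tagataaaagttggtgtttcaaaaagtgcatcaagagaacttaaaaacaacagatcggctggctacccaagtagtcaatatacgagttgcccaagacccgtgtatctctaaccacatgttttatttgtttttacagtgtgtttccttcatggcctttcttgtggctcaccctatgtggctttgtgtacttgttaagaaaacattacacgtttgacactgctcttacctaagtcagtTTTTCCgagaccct
Fasl: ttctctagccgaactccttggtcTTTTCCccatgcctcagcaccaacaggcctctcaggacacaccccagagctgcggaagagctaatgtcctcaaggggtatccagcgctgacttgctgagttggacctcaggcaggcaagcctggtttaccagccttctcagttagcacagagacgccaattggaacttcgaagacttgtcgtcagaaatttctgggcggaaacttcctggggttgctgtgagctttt

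Of the 6 larger rises, 2 were at 50 CPM or more in the higher CD8 library. With 50 CPM asked of all 3 pairs, none met the rule. Fam241a rose from 169 to 515 CPM in CD8 (1.61, 1.56 to 1.66), and was at 38.8 and 48.9 CPM in CD4 (0.34) and at 24.1 and 22.6 CPM in DN (-0.09). It was found in 3900 control and 2328 IR CD8 cells before thinning. The lincRNA 8430422H06Rik rose from 0.581 to 55.1 CPM in CD8 (6.57), but also in CD4 (4.24) and DN (5.52). Tsc22d1, a leucine zipper protein, rose from 6.75 to 29.4 CPM in CD8 (2.12), with -0.46 in CD4 and -0.30 in DN, from 218 UMIs in 153 IR CD8 cells. Ralyl, Trf (transferrin) and Map1b rose from under 1 CPM to 26.5, 20.7 and 12.2 CPM. They also rose in CD4 (2.17, 2.04 and 4.36) and in DN (3.14, 2.05 and 4.86). Their IR DN levels of 36.5, 127 and 19.9 CPM were above those of IR CD8. Of 153 Trf UMIs in IR CD8, 142 lay in 10 cells, and of 90 Map1b UMIs 67 lay in 1 cell. Leaving out barcodes shared between libraries of a condition left Fam241a and Tsc22d1 as the only 2 larger rises.

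The reverse pattern, in which a gene changed at least 2-fold in both CD4 and DN and CD8 lagged at least 2-fold behind, was looked for after the values were seen. It held for 11 rising genes (0.128%) and 4 falling genes (0.0467%). Ier5l, an immediate early response family member, was at 52.9 and 37.5 CPM in CD8 (-0.50) and rose in CD4 and DN (1.87 and 2.61). Ccrl2, a chemerin-binding receptor, was at 9.22 and 12.4 CPM in CD8 (0.43) and rose in CD4 (15.8 to 84.7 CPM) and in DN (21.2 to 165 CPM). Ass1, an enzyme of arginine synthesis, was at 51.5 and 47.1 CPM in CD8 (-0.13) and rose in CD4 and DN (1.17 and 1.86). Sdhaf1, an assembly factor of succinate dehydrogenase, rose less in CD8 (1.48) than in CD4 (2.85) and DN (3.37). Cdk8, a kinase of the Mediator complex, fell less in CD8 (434 to 140 CPM, -1.64) than in CD4 (-2.87) and DN (-3.30).

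Because naive and recirculating genes were more frequent in IR CD8, the CD8 cells were split by whether any UMI of Ccr7, S1pr1, Dapl1 or Igfbp4 was among their 500 thinned UMIs, a split chosen after the data were seen. Such a UMI was found in 13.7% (13.1 to 14.4) of control CD8 cells and 43.4% (42.2 to 44.7) of IR CD8 cells. The shares were 6.20% and 25.3% in CD4 and 1.83% and 2.35% in DN. CD8 cells without such a UMI still held Ccr7 at 45.7 CPM in control and 154 CPM in IR (1.75). S1pr1 was there at 70.6 and 127 CPM (0.85), so the split did not remove the naive genes. The genes of the larger fall were chosen in these same libraries and most of their UMIs lay in cells without such a UMI, 3376 of 3536 for Pdcd1 in control CD8, so their direction in those cells was largely fixed by the choice and the values are given as a description. Pdcd1 had a ratio of -1.05 in cells without and -2.09 in cells with such a UMI, Tigit -0.84 and -0.66, and Setbp1 -1.90 and -1.71. Fasl had -1.30 and -1.99, and Cd101 -1.26 and -1.16. The rise of Gzma was seen in cells without such a UMI (259 to 1093 CPM, 2.08) and not in cells with one (118 to 116 CPM, -0.03). Gzmb went the same way (1.17 and 0.11), as did Ccl5 (1.40 and 0.40). Fam241a rose in both groups of cells (1.11 and 1.27). With the cells that had a naive-gene UMI left out of all 6 libraries, 5 of the 19 genes still met the rule for a larger fall (Ccl1, Cd101, Setbp1, Asb2 and Traj18), and Pdcd1, Tigit and Fasl were among those that did not. Pdcd1 was then at 0.06 in CD4 and -0.30 in DN. Tigit was at 1.01 in CD4 and 1.82 in DN, against 0.79 and 1.83 in all cells, and fell short of the rule because its CD8 ratio was under 2-fold.

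**Figure D5:**
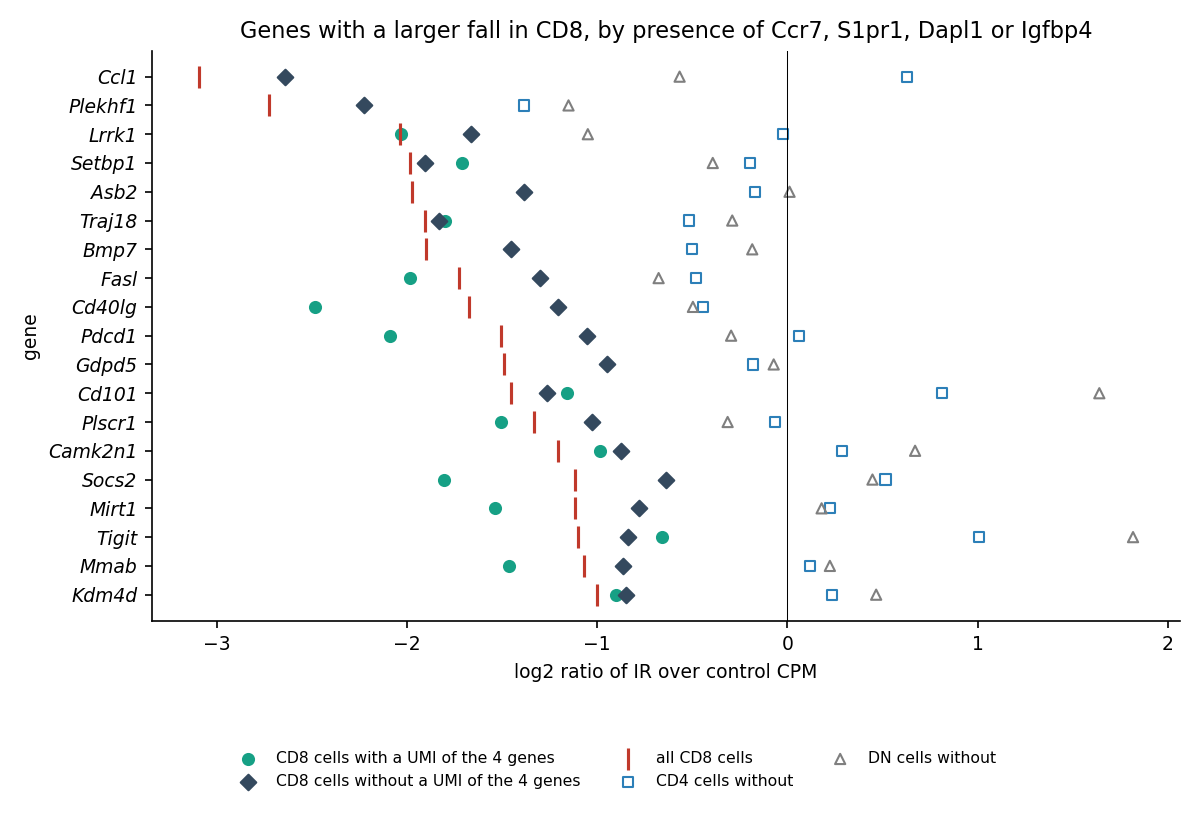
Log2 ratio of IR over control CPM of the 19 genes with a larger fall in CD8: red bars for all CD8 cells, diamonds for CD8 cells without and circles for CD8 cells with a UMI of Ccr7, S1pr1, Dapl1 or Igfbp4, squares and triangles for CD4 and DN cells without. Diamonds run from -2.64 for Ccl1 to -0.64 for Socs2; circles are shown for the 14 genes with over 3 UMIs in both CD8 libraries.

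The Pdcd1-positive cells of normal kidney were described next, since Pdcd1 was highest there. At 500 UMIs, 307 control CD8 cells had a Pdcd1 UMI and 9378 did not. Summed Tigit was 97.7 CPM in cells with and 32.6 CPM in cells without, a log2 ratio of 1.58 (0.71 to 2.35). Cd101 was at 91.2 and 31.1 CPM, Setbp1 at 124 and 45.2 CPM, Camk2n1 at 137 and 47.1 CPM and Tox at 1303 and 600 CPM. Ccr7 was lower in cells with Pdcd1, at 13.0 against 93.8 CPM, and so was Gzma, at 52.1 against 204 CPM. Fasl was at 280 and 190 CPM (0.56, 0.08 to 1.0). Lag3, Havcr2, Ccl1, Mirt1, Socs2, Cd40lg, Asb2 and Bmp7 had at most 8 UMIs in the cells with Pdcd1, and the intervals of their ratios included 0. The cells belong to 1 library and are no replicates.

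One T cell receptor segment stood apart in control CD8. Trav4-4-dv10 was at 44.1 CPM in control and 1.76 CPM in IR CD8. Its UMIs were found in 293 of 9685 control cells (3.03%) and in 11 of 6413 IR cells. Of those 293 cells, 27.6% had a Trbv3 UMI against 8.02% of the other control CD8 cells, and Pdcd1 was at 152 against 60.8 CPM. Leaving out these cells gave 18 larger falls, 17 of them among the 19, Pdcd1 included. Of the 7 V segments at 10 CPM in CD8, 5 rose, 1 fell and the median ratio was 1.21. The 5 that rose also had ratios of 1.32 to 1.97 in CD4 and 1.04 to 1.89 in DN.

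Markers of other cell types were summed over the kept CD8 cells. The erythroid level went from 1.78 to 426 CPM, but 1887 of the 1942 Hbb-bs UMIs of IR CD8 lay in 1 cell. The tubule list went from 4.45 to 92.8 CPM, where 637 of 653 Spp1 UMIs lay in 1 cell. The B cell list was at 177 and 158 CPM in sum, while 2 of its 4 measured genes rose, Ms4a1 from 0.327 to 13.4 CPM and Ebf1 from 2.0 to 16.6 CPM. The myeloid list was at 18.0 and 34.2 CPM, the antigen presenting list at 78.4 and 42.8 CPM and the endothelial list at 101 and 76.4 CPM. NK, gamma delta, invariant NKT or MAIT, platelet and CD4 lists lay between 1.08 and 46.9 CPM. Leaving out cells with 2 or more UMIs of the B, myeloid, erythroid, antigen presenting and platelet lists removed 2881 of 9685 control and 236 of 6413 IR CD8 cells, where UMIs per cell were higher in control. It gave 8 larger rises and 23 larger falls, which held 3 of the 6 and 17 of the 19 found in all cells. Ralyl, Map1b and 8430422H06Rik no longer met the rule for a larger rise, while Pdcd1, Tigit and Fasl still met that for a larger fall.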

How the data were processed

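Single-cell 3' libraries of sorted kidney T cells (1 each for control and IR CD4, CD8 and DN) were analysed. The deposited matrices hold raw UMI counts; the authors made them from 10x reads with Cell Ranger on mm10. The submitters' processing notes name version 6.0.1, and the file headers give 5.0.1 for control and 6.0.1 for IR. The methods state default settings and do not name how intronic reads were counted. Barcodes were kept by genes, mitochondrial share and Cd3 UMIs as stated in the report. The 102 removed features were 13 mitochondrial genes, 88 ribosomal protein genes and Malat1. The study left out the 5% of barcodes with most UMIs as doublets, which here was an alternative, and no doublet caller was run.

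Counts were summed per library (Python 3.11.15, NumPy 2.4.6, pandas 2.3.3, SciPy 1.17.1) and expressed as CPM with exact Poisson intervals. Shares were given with exact Clopper-Pearson intervals after thinning without replacement. A count of 0 was set to 3 counts in ratios, which is 0.405 CPM in IR CD8 and 0.0544 CPM in control CD8. No test was run, since cells are not replicates. TMM factors came from edgeR 4.0.16 (R 4.3.3) with no edgeR test. Counting rules were tested on simulated counts. Intronic lengths came from GENCODE M21, in which 99.8% of features were matched.

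Ccr7, Pdcd1, Tigit and all gene lists were named, with, in each direction, up to 10 genes of largest excess in CD8 at 50 CPM or more (T cell receptor segments left out) and genes that changed the opposite way. Members and lists were chosen with earlier results of these data known. The alternatives were the removed features kept, TMM scaling, other CPM minimums, a 1.5-fold excess, other cell filters, thinning, a mean over cells, leaving out shared or other-marker barcodes, and intronic bins. The 3 added after seeing the data left out cells with naive-gene UMIs, cells with Trav4-4-dv10 and, gene by gene, the highest cell. A few genes are not reported here.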

Additional observations from a re-analysis of the deposited data

Results flagged for a closer look

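Cd101 and Tigit changed at least 2-fold in opposite directions in CD8 and DN. The log2 ratio of IR over control of Cd101 was -1.45 in CD8 and 1.61 in DN, and that of Tigit was -1.10 in CD8 and 1.83 in DN. The difference between the subsets was not tested, since each has 1 library per condition. Centred within bins of intronic length, which sets the all-gene median from -0.39 to 0, the CD8 ratios were -0.93 for Cd101 and -0.79 for Tigit.

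Barcodes without a Cd3 UMI, which took no part in the comparison, held erythroid genes at 67468 CPM in the IR CD8 library against 2.71 CPM in control CD8, and 13 of the 648 IR barcodes had at least 5 erythroid UMIs. These are all barcodes without a Cd3 UMI. In the 166 control and 414 IR barcodes among them that passed the other filters, the erythroid list was at 4.90 and 42.2 CPM.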

How the results depend on the processing

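Counts of genes depended on scaling and on the minimum level. Against 681 higher and 1600 lower genes in CD8, keeping the removed features gave 321 and 3138, no minimum 4248 and 2809, a minimum of 50 CPM 297 and 842, and intronic length bins 913 and 481. TMM scaling gave 749 and 1359, a share of 35.5% higher against 29.9%. The 6 larger rises in CD8 became 3 with the removed features kept, 11 under TMM, 463 with no minimum, 0 at 50 CPM, 30 at a 1.5-fold excess, 13 with no cell filter, 19 after thinning, 10 as a mean over cells, 2 without shared barcodes, 15 in intronic bins and 11 without cells with naive genes. The 19 larger falls became 353 with no minimum, 1 at 50 CPM (Fasl), 113 at a 1.5-fold excess, 49 after thinning (14 of the 19 among them) and 6 in intronic bins. Under the other settings they were between 13 and 26. The causes were not tested, except that a minimum of 50 CPM leaves 4119 genes measurable in 3 pairs and no minimum 17424. Asb2, Setbp1, Fam241a and Tsc22d1 met the rule in all 16 settings apart from the minimum of 50 CPM. Pdcd1 met it in 15 of 17.

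Shares changed with depth and kept their order between control and IR CD8. Without thinning, at 250 UMIs and at 1000 UMIs of all features, control CD8 shares were 18.1%, 2.15% and 4.85% for Ccr7, 19.1%, 1.77% and 4.60% for Pdcd1 and 12.5%, 0.836% and 2.39% for Tigit. IR CD8 shares without thinning and at 250 UMIs were 37.3% and 13.9% for Ccr7, 2.28% and 0.359% for Pdcd1 and 1.48% and 0.343% for Tigit. Of 130 named genes changed at least 2-fold in CD8, 11 dropped below 2-fold with the removed features kept, 3 under TMM, 34 in intronic bins and 28 without cells with naive genes. The direction turned for Hspb1 alone, to 0.34 with no cell filter. No paired analysis was possible because each group has 1 library. At the pooled depth of IR CD8, 3 counts are 0.405 CPM, so lower levels there cannot be ranked.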
